A study of Mus musculus with 6 samples.

Results

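Histone genes were followed in CD11b-positive cells sorted from spinal cord, with and without electroconvulsive seizures (ECS), in mice of the inbred Biozzi ABH strain. The members were chosen by symbol alone: entries of the deposited table whose gene symbol starts with Hist1h to Hist4h, H1f, H2af or H3f3. That gave 92 rows and 91 genes of 47719 rows in all, since Hist2h2bb stood on 2 rows and the row with the higher mean was kept. Of the 91 genes, 70 are Hist genes, called clustered here, and 21 carry H1f, H2af or H3f3 symbols, called variant here. Among the variant symbols are 5 processed pseudogenes and 1 antisense RNA gene, H3f3aos, and among the clustered symbols are 3 pseudogenes, by GENCODE M21.

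Control and ECS had 3 libraries each, every one from 5 mice pooled, so that a replicate is a pool. All mice were 3 months old and had 3 sessions on consecutive days, of ECS or of control treatment, and were killed on the next day. The control libraries are described as naive in the labels, while the protocol speaks of sham treatment. CD11b is a surface integrin that microglia share with other myeloid cells, so magnetic selection for it does not give microglia alone. Levels are in FPKM, a measure per transcript length and per library size. Their sum over all genes was 729831 to 1009665 per library, and the number of reads behind them is unknown. Values of a group are given in the order of its replicate numbers, which is only an order of names.

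Histones package DNA: the core histones H2A, H2B, H3 and H4 form the nucleosome, and the linker histone H1 binds where DNA enters and leaves it. Replication-dependent histone genes lie in clusters, mostly lack introns and are read in S phase. Their mRNAs usually end just after a stem-loop that the stem-loop binding protein (SLBP) recognises, without a poly(A) tail. Variant, or replacement, histone genes lie outside the clusters, are read through the whole cell cycle and give polyadenylated mRNA. Some clustered genes also give polyadenylated transcripts in cells that have stopped dividing. The libraries here were made from poly(A)-selected RNA, so a clustered histone mRNA that ends at its stem-loop would be captured poorly, and its FPKM does not measure its amount in the cell.

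The 3′ ends of the annotated transcripts carry this difference in sequence. All annotated transcripts of each gene were searched on the sense strand for the histone stem-loop motif of 16 bases. It was present in 44 of 68 clustered genes with a GENCODE M21 transcript (64.7%), in 1 of 21 variant genes (4.76%) and in 0.260% of 21951 protein-coding genes. The 8 stem-loop sequences found in clustered genes differed little, and the commonest, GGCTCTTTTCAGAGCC, was in 24 clustered genes. Of the 24 clustered genes without a match, 13 are protein-coding genes whose longest annotated transcript stops at the stop codon, so a stem-loop past the stop codon would lie outside the sequence searched. Stem-loops of 7 clustered genes with values above 0 in these libraries are shown here, with the stem-loop in capitals, from GENCODE M21 transcripts on GRCm38, together with that of H2afx, the variant gene that had one.
Hist1h1c (chr13:23739507-23739532, plus strand): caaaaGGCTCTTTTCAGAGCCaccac
Hist1h3a (chr13:23761885-23761910, minus strand): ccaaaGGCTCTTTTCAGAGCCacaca
Hist1h2bg (chr13:23571838-23571863, plus strand): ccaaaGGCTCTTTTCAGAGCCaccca
Hist2h3c1 (chr3:96247322-96247347, plus strand): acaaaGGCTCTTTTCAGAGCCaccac
Hist1h3c (chr13:23745042-23745067, minus strand): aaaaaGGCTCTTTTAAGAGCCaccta
Hist1h2bb (chr13:23747198-23747223, plus strand): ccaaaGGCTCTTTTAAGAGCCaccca
Hist1h4a (chr13:23760795-23760820, minus strand): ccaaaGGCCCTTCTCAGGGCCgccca
H2afx (chr9:44335235-44335260, plus strand): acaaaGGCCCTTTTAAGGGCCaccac

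The hexamers AATAAA and ATTAAA, the common signals for adding a poly(A) tail, were searched on the sense strand in the last 50 bases of every annotated transcript. At least 1 was present in 17 of 68 clustered genes (25.0%), in 12 of 21 variant genes (57.1%) and in 80.7% of protein-coding genes. The annotated transcripts of Hist1h1c and H2afx hold both features: 840 and 822 bases lie between the stem-loop and the transcript end, and a hexamer lies near that end. Among the clustered genes with a hexamer, 7 of 17 were above 0 FPKM in at least 1 library, and among those without one 13 of 51 were. Of the same genes, 2 of 17 and 8 of 51 had a mean of at least 1 FPKM. The 2 with a hexamer, Hist1h1c and Hist2h3c1, were also the only clustered genes above 0 in all 6 libraries. The 8 without one ranged from Hist2h2bb and Hist1h3c, above 0 in 1 library, to Hist1h2al, above 0 in 5. A link between the hexamer and detection was not tested. The 3′ ends of the most abundant variant genes and of Hist1h1c are shown with the hexamer in capitals.
H3f3b (chr11:116021989-116022014, minus strand): aggccttacaAATAAActagtaagtt
H3f3a (chr1:180800838-180800863, minus strand): tttgaaaaatAATAAAagtaccaata
H2afz (chr3:137866887-137866912, plus strand): ctgcttactaATTAAAcagtgcatct
H2afx (chr9:44336033-44336058, plus strand): ggctaattttATTAAAggatcgtttg
Hist1h1c (chr13:23740332-23740357, plus strand): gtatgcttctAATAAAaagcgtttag

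Variant genes made up most of the histone signal in these poly(A) libraries. The FPKM summed over the 21 variant genes came to 485, 559 and 455 over the control libraries, against 431, 461 and 493 over the ECS libraries. Summed over the 70 clustered genes it came to 133, 73.2 and 118 over the control libraries, against 7.31, 168 and 135 over the ECS libraries. ECS 1 was far below every other library for the clustered genes. ECS 2 was the highest, and ECS 3 was close to control 1. The clustered genes thus held 11.6% to 21.5% of the histone signal in control and 1.67%, 26.7% and 21.5% in ECS 1, 2 and 3. In bulk RNA, fewer cells of a type and less RNA per cell cannot be told apart.

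ECS 1 stood apart in the whole table as well. Of the 11315 genes that averaged 1 FPKM or more, ECS 1 listed 14.0% at 0 and the other libraries 3.96% to 7.12%. Of them, 7271 had a mean between 1.63 and 24.0 FPKM, the range of the tested clustered genes. In ECS 1, 14.2% of these 7271 were at 0, while 8 of the 10 tested clustered genes were. The tested clustered genes were often at 0 elsewhere too. In control 1, 2 and 3, 3, 5 and 4 of the 10 were at 0, and 3 were in each of ECS 2 and ECS 3. In those libraries 3.58% to 6.79% of the 7271 were at 0. An exact 0 in such a table can be a failed estimate, so tested genes with a 0 are given by their single values. Of the 20 tested histone genes, 12 had a 0 in some library, against a background of 20.0% of all tested genes.

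**Figure D1:**
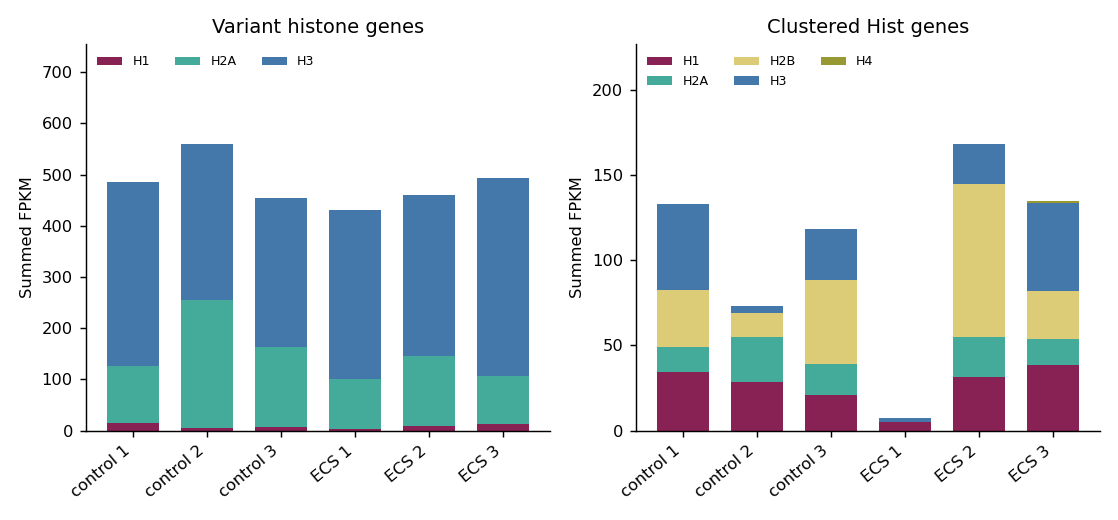
Summed FPKM (vertical axis) of variant histone genes (left) and clustered Hist genes (right) in each of the 6 libraries, stacked by histone class. The variant sums lie between 431 and 559, while the clustered sum is 7.31 in ECS 1 and 73.2 to 168 in the other libraries. The vertical axes of the panels differ in range.

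ECS was compared with control by limma on log2(FPKM + 1) over those 11315 genes, with Benjamini-Hochberg adjustment over all of them and a threshold of 0.05. Of the histone genes, 10 clustered and 10 variant genes reached that mean and were tested, and 0 of these 20 passed, each with a limma adjusted p of 1.00. Over all genes tested 0 passed, a background of 0%. At an unadjusted p under 0.05 there was 1 histone gene, H2afv, with lower values in ECS, where 1.94% of all genes tested had lower and 1.71% had higher values at that p. The log2 fold change on log2(FPKM + 1) was below 0 for 9 of 10 variant genes and 6 of 10 clustered genes, where the background is 50.8%. These include H3f3a and Hist1h1c, whose mean FPKM was slightly higher in ECS. The median log2 fold change was -0.49 for the tested variant genes, -0.22 for the tested clustered genes and -0.01 for all genes tested. H2afv alone among the 20 had groups that did not overlap, where 3.79% of all genes tested were lower in ECS without overlap, 3.70% were higher and 7.49% were either. These counts cover only the members that passed the filter on the mean. H2afv, H2afj, H3f3a-ps2, Hist2h2bb, Hist1h3c and Hist1h1e averaged under 1 FPKM in ECS and passed it through their control values alone. The filter thus favoured lower values in ECS for these genes, which enter the counts and medians above. The lowest control mean among the tested members was 1.42 FPKM, for Hist1h2bb, so no member passed through ECS alone.

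H3.3, the replacement form of histone H3, is encoded by H3f3a and H3f3b, which give the same protein from genes on different chromosomes. H3f3b (GRCm38, chromosome 11, 116021912 to 116027962, minus strand, 6 exons in the longest transcript) was the most abundant histone transcript per length in all 6 libraries. It read 241, 202 and 197 FPKM over the control libraries, against 232, 241 and 268 over the ECS libraries. Control 1 lay within the ECS range, so the groups overlapped. The control mean was 213 ± 24.1 FPKM and the ECS mean 247 ± 18.7 (SD, n = 3 each), and limma put the difference at 0.21 ± 0.21 (SE) on the log2 scale. The 95% interval ran from 0.827-fold to 1.63-fold. Only 3.66% of all genes tested had an unadjusted p under 0.05, and H3f3b, at 0.337, was not among them.

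H3f3a (chromosome 1, 180800832 to 180813943, minus strand) read 96.7, 101 and 93.6 FPKM over the control libraries, against 98.4, 74.5 and 119 over the ECS libraries. The control libraries were close together and lay inside the wider range of the ECS libraries. The group means were 97.2 ± 3.82 and 97.3 ± 22.2 FPKM (SD, n = 3 each), the log2 fold change was -0.02 ± 0.25 (SE), and the 95% interval ran from 0.651-fold to 1.49-fold. H3f3a was second among the histone genes in 5 of 6 libraries and behind H2afz in control 2. The ratio of H3f3b to H3f3a came to 2.49, 1.99 and 2.10 over the control libraries, against 2.36, 3.23 and 2.25 over the ECS libraries, so H3f3b was the higher of the pair everywhere. Together H3f3a and H3f3b made up 54.2% to 69.7% of the variant sum in control and 68.4% to 78.4% in ECS.

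Copies of H3f3a in the genome limit what can be said of its low relatives. The processed pseudogene H3f3a-ps2 was at 15.6 FPKM in control 1 and listed at 0 in the other 5 libraries. In its transcript, 82.0% of all windows of 50 bases also occur in a transcript of another gene, and 55.2% in H3f3a, so its value is uncertain. H3f3a-ps1, H3f3c and the antisense gene H3f3aos averaged under 1 FPKM and were not tested. The highest single value among them was 4.89 FPKM, for H3f3aos in control 1. H3f3aos overlaps H3f3a on the opposite strand, and reads of the 2 genes cannot be told apart where strand was not used in counting, which the sources used here do not give.

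The 5 tested H2A variant genes had lower mean values in ECS, and 0 of them passed the test. Of these, H2afv and H2afj averaged under 1 FPKM in ECS and were tested only because of their control values. H2A.Z, a variant placed at promoters by chromatin remodelling complexes, is encoded by H2afz and H2afv. H2afz (chromosome 3, 137864487 to 137866922, plus strand) read 29.1, 121 and 59.5 FPKM over the control libraries, against 48.9, 56.9 and 20.5 over the ECS libraries. Its spread within control exceeded the difference between the groups: the means were 70.0 ± 47.0 and 42.1 ± 19.1 FPKM (SD, n = 3 each). On the log2 scale limma put the difference at -0.62 ± 0.59 (SE), and at -0.11 without control 2. H2afz is a gene of proliferating cells in many tissues. The summed FPKM of 15 markers of cycling cells, such as Mki67 and Top2a, came to 230.0, 456 and 317 over the control libraries, against 373, 314 and 319 over the ECS libraries. Both H2afz and the cycling sum were highest in control 2, where Ube2c alone read 282 FPKM. Mki67 and Top2a were instead highest in control 3, at 31.3 and 37.4 FPKM. ECS 3, lowest in H2afz, had a cycling sum above that of control 1. The part of cycling cells in the H2afz values was not tested. Windows of 50 bases shared with the pseudogene Gm8203 made up 33.1% of the H2afz transcript, and windows shared with Tmcc1 on the opposite strand 60.8%.

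H2afv (chromosome 11, 6427229 to 6444443, minus strand, 5 exons) was the member with the smallest p and with groups that did not overlap. It read 6.20, 4.49 and 2.46 FPKM over the control libraries, against 0, 1.03 and 0.130 over the ECS libraries. Every control library was above every ECS library, at low levels throughout. Its ECS mean was 0.387 FPKM, so H2afv passed the filter on the mean through control alone. The log2 fold change was -1.97 ± 0.55 (SE), with a 95% interval from -3.26 to -0.67 and an unadjusted p of 0.00851 before adjustment over all genes, and it did not pass after it. Without ECS 1, where it is listed at 0, the log2 fold change was -1.77 ± 0.57 (SE). Of windows of 50 bases in its transcript, 0% occur in a transcript of another gene. H2afv was lower than H2afz in all 6 libraries, by this measure per length.

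H2afx encodes H2A.X, the H2A form that is phosphorylated beside DNA double-strand breaks. It lies on chromosome 9 (44334694 to 44336077, plus strand), and its annotated transcript has 1 exon and the stem-loop and hexamer shown above. It read 37.9, 79.9 and 52.1 FPKM over the control libraries, against 25.9, 32.9 and 38.0 over the ECS libraries. Only ECS 3 reached the range of the control libraries, at about the level of control 1. The means were 56.6 ± 21.4 and 32.3 ± 6.04 FPKM (SD, n = 3 each). The log2 fold change was -0.74 ± 0.34 (SE), with a 95% interval from 0.341-fold to 1.05-fold and an unadjusted p of 0.0663. This was the second smallest p among the members, and without control 2 the estimate was -0.47. Control 2 was highest for H2afx as for H2afz, and the ratio of H2afz to H2afx still moved from 0.768 to 1.52 within control and from 0.539 to 1.88 within ECS.

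**Figure D2:**
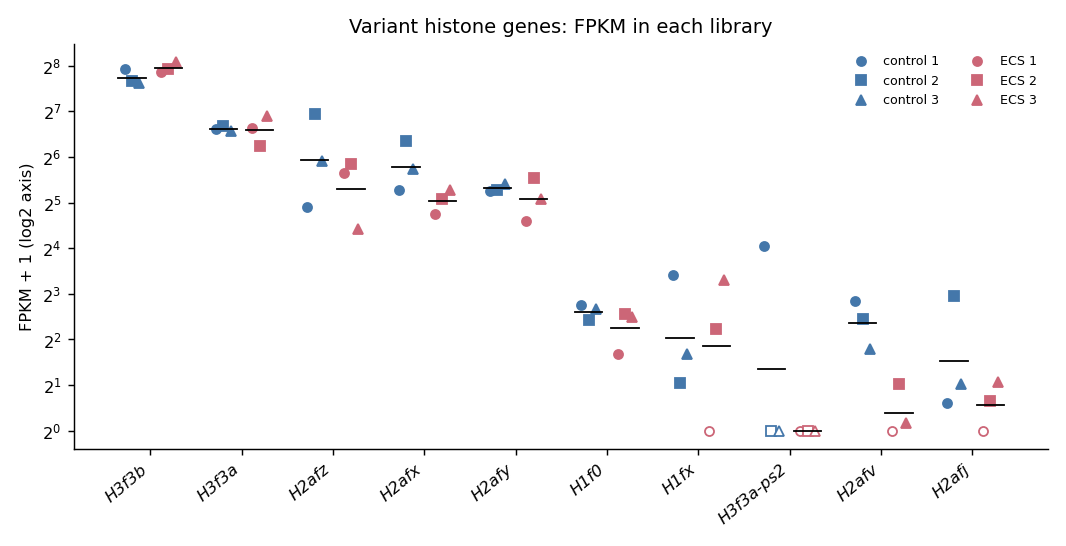
FPKM + 1 on a log2 axis for the 10 tested variant genes, with control libraries in blue and ECS libraries in red, the replicate number by the shape of the point, open points for genes listed at 0, and a black line at the mean of log2(FPKM + 1) in each group. H2afv is the gene whose groups do not overlap, and H3f3b, H3f3a and H2afy show a smaller spread than the low genes.

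H2afy encodes macroH2A1, an H2A form with a large extra domain that is found in silenced chromatin. It lies on chromosome 13 (56073619 to 56136361, minus strand), outside the histone cluster of that chromosome. Control 1, 2 and 3 were at 37.1, 37.8 and 41.4 FPKM, and ECS 1, 2 and 3 at 23.3, 45.8 and 32.8. The ECS libraries spread to both sides of the control libraries. Limma gave H2afy a log2 fold change of -0.24 ± 0.31 (SE), with a 95% interval from 0.509-fold to 1.42-fold. H2afy2, which encodes macroH2A2, was listed at 0 in all 6 libraries. H2afj, which encodes H2A.J, read 0.523, 6.70 and 1.05 FPKM over the control libraries, against 0, 0.572 and 1.10 over the ECS libraries. A high value in control 2 alone set the H2afj mean in control, as the other control values were close to those of ECS 2 and ECS 3. H2afb1, H2afb2 and H2afb3 were at 0 in every library.

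Linker histone variants were low. H1f0, which encodes H1.0, a linker histone known to accumulate in differentiated cells, read 5.71, 4.37 and 5.35 FPKM over the control libraries, against 2.19, 4.91 and 4.63 over the ECS libraries. ECS 1 was the low library, and ECS 2 and ECS 3 lay within the control range. Limma gave H1f0 a log2 fold change of -0.37 ± 0.42 (SE), and -0.08 without ECS 1. H1fx read 9.61, 1.06 and 2.19 FPKM over the control libraries, against 0, 3.72 and 8.90 over the ECS libraries. The libraries of both groups covered the same range for H1fx. H1foo and H1fnt, linker histone genes of oocytes and of the male germline, were listed at 0 in all 6 libraries.

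Clustered Hist genes were at 0 in most entries. Of 70, 50 were listed at 0 in all 6 libraries, 20 were above 0 in at least 1, and Hist1h1c and Hist2h3c1 alone were above 0 in all 6. By class, 3 of 6 H1 genes, 3 of 20 H2A genes, 7 of 19 H2B genes, 6 of 12 H3 genes and 1 of 13 H4 genes were above 0 in at least 1 library. The number above 0 per library came to 12, 8 and 9 over the control libraries, against 2, 12 and 14 over the ECS libraries. Of the 68 with a GENCODE M21 entry, 54 lie on chromosome 13, 10 on chromosome 3, 3 on chromosome 11 and 1 on chromosome 6.

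**Figure D3:**
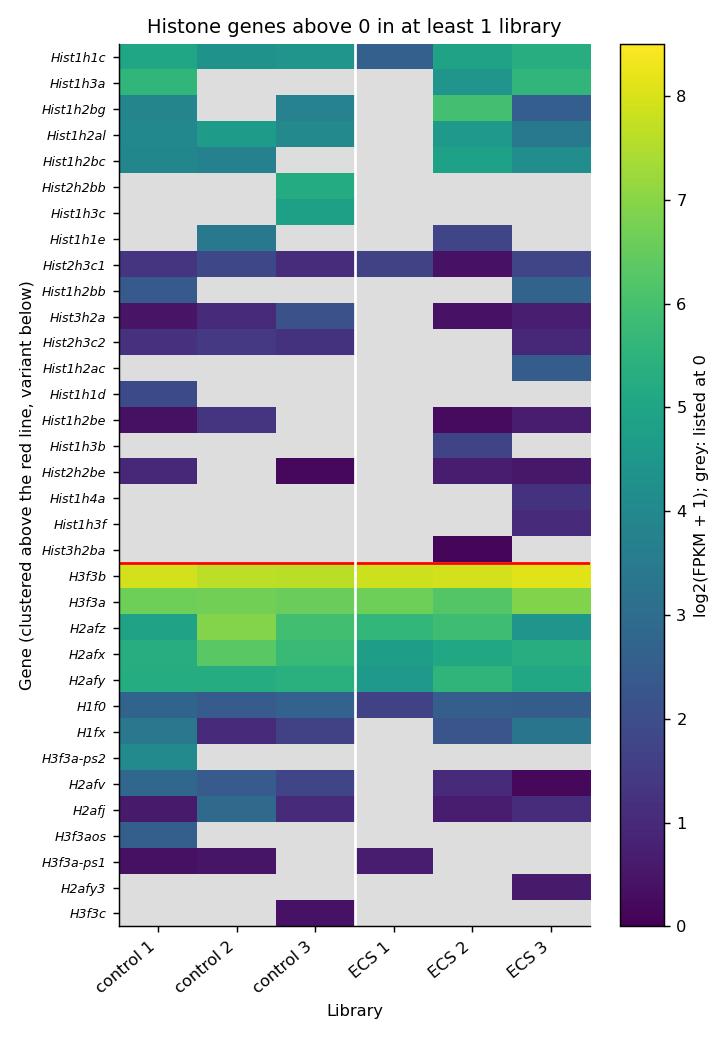
Level as log2(FPKM + 1), by colour, of the 34 histone genes above 0 in at least 1 library (rows) in the 6 libraries (columns), with entries listed at 0 in grey. The 20 clustered genes stand above the red line and the 14 variant genes below it, and 2 clustered genes and 7 variant genes are above 0 in ECS 1.

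Hist1h1c, which encodes the linker histone H1.2, was the clustered gene with the highest mean. It lies on chromosome 13 (23738808 to 23740367, plus strand) with 1 exon, and its annotated transcript runs past the stem-loop to the hexamer shown above. It read 31.6, 19.0 and 20.8 FPKM over the control libraries, against 5.10, 29.0 and 38.5 over the ECS libraries. ECS 1 was the lowest of the 6 libraries and ECS 3 the highest, so the control values lay between those of ECS 1 and ECS 3. The log2 fold change was -0.33 ± 0.69 (SE), with a 95% interval from 0.259-fold to 2.46-fold. Without ECS 1 the log2 fold change was 0.51 ± 0.35 (SE), so its direction rested on that library. Few of its windows of 50 bases (8.54%) occur in other genes, chiefly Hist1h1d and Hist1h1e. Hist1h1e was seen in control 2, at 9.75 FPKM, and in ECS 2, at 2.46, and Hist1h1d was at 2.77 in control 1 alone.

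The H2B genes Hist1h2bg and Hist1h2bc share 45.0% of the windows of 50 bases in the Hist1h2bg transcript, so Cufflinks could divide their reads in either way. Hist1h2bg was at 13.8 and 12.5 FPKM in control 1 and control 3, at 60.8 and 4.83 in ECS 2 and ECS 3, and at 0 in control 2 and ECS 1. Hist1h2bc was at 14.1 and 12.5 FPKM in control 1 and control 2, at 28.0 and 17.0 in ECS 2 and ECS 3, and at 0 in control 3 and ECS 1. ECS 2 had the highest value of both genes. Their log2 fold changes were 0.29 ± 1.62 and 0.45 ± 1.51 (SE), and the 95% interval of Hist1h2bc ran from 0.119-fold to 15.8-fold. Summed over the H2B class, which such sharing moves less, the clustered genes read 33.3, 13.9 and 49.1 FPKM over the control libraries, against 0, 89.7 and 28.4 over the ECS libraries. Of the 49.1 FPKM in control 3, 36.5 came from Hist2h2bb, whose value is uncertain for the reason given below. The groups overlapped in the H2B sum as well.

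Other H2B genes appeared in few libraries. Hist2h2bb was at 36.5 FPKM in control 3 and at 0 in the other 5, and all of its windows (100%) occur on the opposite strand in Gm20628, so its value is uncertain. Hist1h2bb was seen in control 1, at 4.27 FPKM, and in ECS 3, at 5.54. Of the H2A class, Hist1h2al alone was tested. GENCODE M21 calls it a processed pseudogene (chromosome 13, 51202727 to 51203065, minus strand). It read 14.7, 25.2 and 15.0 FPKM over the control libraries, against 0, 23.4 and 9.86 over the ECS libraries, and its log2 fold change was -1.54 ± 1.08 (SE). Without ECS 1 the estimate was -0.20, and without ECS 2 it was -2.51. Of its windows, 65.5% occur in Hist2h2aa1, which was at 0 in all 6 libraries, so the gene that these reads came from cannot be told from these values.

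**Figure D4:**
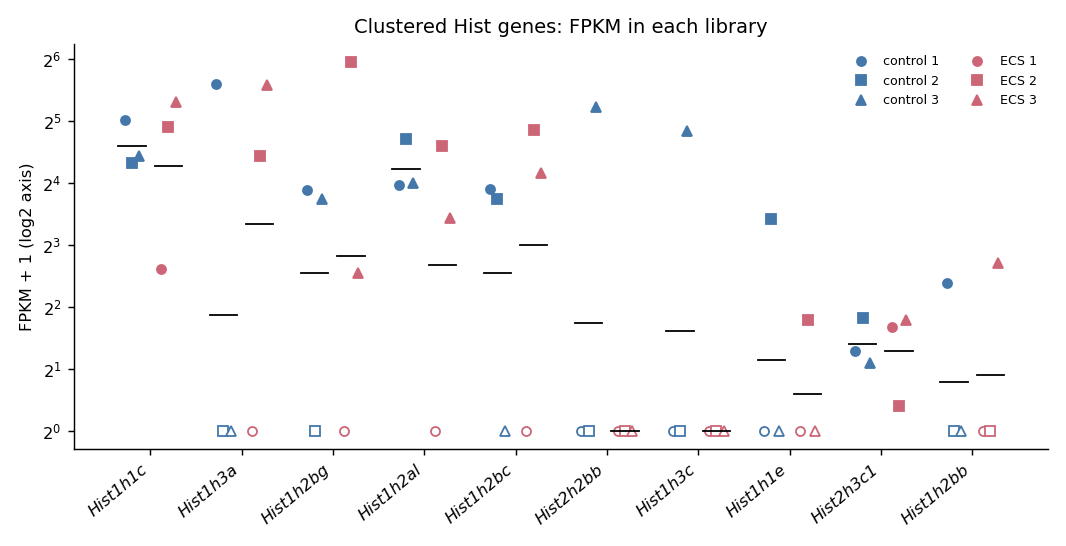
FPKM + 1 on a log2 axis for the 10 tested clustered genes, with control libraries in blue and ECS libraries in red, the replicate number by the shape of the point, open points for genes listed at 0, and a black line at the mean of log2(FPKM + 1) in each group. ECS 1 is at 0 for 8 of the 10 genes, and values above 0 lie beside values of 0 within the same group for Hist1h3a, Hist1h2bg and Hist1h2bc.

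Clustered H3 genes behaved in the same scattered way. Hist1h3a was at 47.5 FPKM in control 1, at 20.8 and 46.9 in ECS 2 and ECS 3, and at 0 in control 2, control 3 and ECS 1. Hist1h3c was at 27.6 FPKM in control 3 and at 0 in the other 5 libraries. The log2 fold change of Hist1h3a was 1.48 ± 1.90 (SE), with a 95% interval from 0.127-fold to 61.1-fold, which holds large differences of both signs. With 1 library left out at a time, the estimate ranged from 0.36 without ECS 3 to 3.34 without control 1. Its transcript shares 45.2% of windows with Hist1h3h and 42.1% with Hist1h3c. Hist2h3c1 was above 0 everywhere but low, with 1.44, 2.55 and 1.14 FPKM over the control libraries, against 2.21, 0.327 and 2.46 over the ECS libraries. All of its windows (100%) occur in the overlapping gene Gm20634. Hist2h3c2, below the filter and so not tested, read 1.31, 1.65 and 1.40 FPKM over the control libraries, against 0, 0 and 0.95 over the ECS libraries. Its groups did not overlap, and it is named here after its values were seen. Among all genes tested 3.79% were lower in ECS without overlap, but that share leaves out genes below the filter, such as Hist2h3c2. Among the H4 genes Hist1h4a alone was above 0, at 1.36 FPKM in ECS 3. The remaining 7 clustered genes above 0, which include Hist3h2a and Hist2h2be, also averaged under 1 FPKM and were not tested.

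**Figure D5:**
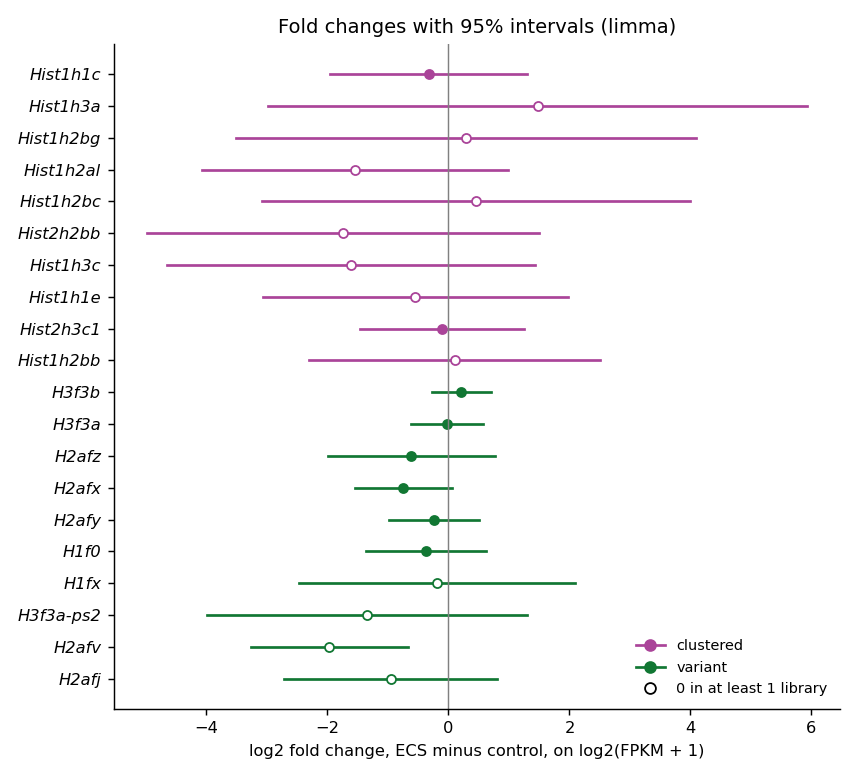
log2 fold change of ECS minus control on log2(FPKM + 1) for the 20 tested histone genes, with 95% intervals from limma. Filled points are genes above 0 in all 6 libraries and open points genes listed at 0 in at least 1, and the interval of H2afv alone does not include 0.

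The precision differed between the kinds of gene. Among the 10 clustered genes the median 95% interval extended 2.79 on the log2 scale, or 6.91-fold, to each side of the estimate. Among the 10 variant genes it extended 1.14, or 2.20-fold. For all genes tested it extended 1.23. Changes of 2-fold in either direction lie outside the intervals of H3f3b and H3f3a and inside that of Hist1h1c, the most abundant clustered gene. Shared sequence differed as well: in the 9 tested protein-coding clustered genes a median of 47.0% of windows of 50 bases occur in another gene, and in the 9 tested protein-coding variant genes 2.24%.

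Genes around the histones gave 0 calls too. Of 25 genes of DNA replication in S phase, 22 were tested, 7 had higher and 15 lower values in ECS, 0 had an unadjusted p under 0.05, and the median log2 fold change was -0.14. Among them the licensing factor gene Cdt1 averaged 38.5 ± 7.85 and 28.0 ± 14.4 FPKM in control and ECS, the helicase subunit gene Mcm3 24.4 ± 10.8 and 23.3 ± 10.9, and the ribonucleotide reductase gene Rrm2 25.7 ± 4.80 and 21.9 ± 2.83 (SD, n = 3 each). Cdc6, the member of this list with the smallest p, read 1.70, 6.45 and 4.69 FPKM over the control libraries, against 0, 1.07 and 2.16 over the ECS libraries. Mcm7, a helicase subunit gene, is named after its values were seen. It read 12.4, 12.4 and 13.1 FPKM over the control libraries, against 1.42, 7.55 and 12.2 over the ECS libraries. Its groups did not overlap, where 3.79% of all genes tested were lower in ECS without overlap. Its difference was -1.07 ± 0.63 (SE) on the log2 scale, with an unadjusted p of 0.128. Cdt1, Mcm3 and Rrm2 were above 0 in all 6 libraries, including ECS 1.

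Genes for transcription and 3′ processing of histone mRNA were tested for 10 of 13 members, with 3 higher and 7 lower and a median log2 fold change of -0.19. Slbp, which encodes the protein that binds the stem-loops shown above, had both the highest mean and the smallest p of this list. It read 95.5, 59.7 and 83.5 FPKM over the control libraries, against 44.8, 40.9 and 65.8 over the ECS libraries. ECS 3 lay above control 2, and the other ECS libraries lay below all control libraries. The log2 fold change of Slbp was -0.65 ± 0.31 (SE), with an unadjusted p of 0.0691. The cleavage scaffold gene Sympk and the cap-binding partner gene Srrt had log2 fold changes of 0.29 ± 0.35 and -0.12 ± 0.29 (SE).

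Of 26 histone chaperone and exchange genes, 24 were tested, 10 had higher and 14 lower values in ECS, and the median log2 fold change was -0.18. Rbbp4, a histone-binding subunit of several chromatin complexes, was the highest, with a control mean of 721 ± 95.1 FPKM and an ECS mean of 549 ± 150.0 (SD, n = 3 each). Its relative Rbbp7 read 10.6, 9.14 and 5.41 FPKM over the control libraries, against 11.8, 12.8 and 14.3 over the ECS libraries, so its groups did not overlap, where 3.70% of all genes tested were higher without overlap. Ep400, a remodeller that exchanges H2A.Z, differed by -0.28 ± 0.81 (SE) on the log2 scale, the nucleolar chaperone gene Npm1 by 0.33 ± 0.34 (SE) and Rbbp4 by -0.42 ± 0.25 (SE). In none of these 3 lists did a tested gene have an unadjusted p under 0.05.

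The makeup of the sorted cells varied between libraries. Microglial markers were all 8 detected, with sums of 7413 to 10006 FPKM in control and 5811 to 8915 in ECS. Among them Fcrls alone had groups that did not overlap, where 3.79% of all genes tested were lower in ECS without overlap. Fcrls read 213, 170 and 146 FPKM over the control libraries, against 100, 78.2 and 102 over the ECS libraries. Its unadjusted p from limma was 0.00782. Neutrophil markers were abundant beside the microglial markers, with sums of 11064 to 20040 FPKM in control and 8513 to 10321 in ECS. These sums did not overlap, and 9 of 9 markers had a log2 fold change below 0, where the background is 50.8%. These ranged from -0.97 for Ltf to -0.12 for Cxcr2 and -0.10 for Retnlg. Ngp had the highest mean of the 9, at 5774 FPKM over the 6 libraries, and so weighs most in the sum. Ngp alone among the 9 had groups that did not overlap, where 3.79% of all genes tested were lower in ECS without overlap. Ltf had an unadjusted p of 0.0363 from limma. B cell markers summed to 709 FPKM in ECS 1, the library with the fewest clustered genes above 0, and to 9.04 to 46.4 in the other libraries. Erythroid sums ranged from 2231 to 32810 FPKM in control and from 7208 to 77318 in ECS. They mix unlike patterns: Hba-a1 was at 2059 FPKM in control 1, at 6510 in ECS 3 and at 0 in every other library. Hbb-bs was lowest in control 1 and ECS 3, at 156 and 619 FPKM. Neuronal markers were near 0, with sums of at most 0.912 FPKM and Syt1 and Nefl at 0 in every library. Border macrophage sums did not overlap either, at 146 to 164 FPKM in control and 205 to 657 in ECS. Within that sum, Pf4 read 427 FPKM in ECS 2 and 6.87 in ECS 3. Of these 7 markers, 5 had a log2 fold change above 0. Cbr2 and Clec10a had groups that did not overlap, where 3.70% of all genes tested were higher in ECS without overlap. Their unadjusted p from limma was 0.0188 and 0.0349. Mrc1, F13a1, Cd163 and Lyve1 overlapped, with log2 fold changes of -0.03, -0.01, 0.26 and 0.38. Fcrls, Ngp, Ltf, Cbr2 and Clec10a are named after their values were seen, and their limma adjusted p was 1.00. The part of these cell types in the histone values was not tested.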

How the data were processed

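The authors deposited FPKM per gene, 1 column per library, from poly(A) RNA and a SENSE kit with 100 ng of input, per the labels' protocols. Per the submitters' processing notes, TopHat2, Cufflinks, Cuffnorm and GRCm38 were used. Tool versions, annotation, strand use and library scaling: not given in the sources used here. FPKM keeps no read depth, so no counting interval is given. Positions, exons and sequences are from GENCODE M21, which held the IDs of 89 of 91 members. For 51 of these 89 its span equals the deposited locus, so the authors' transcript ends may differ.

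Groups follow the labels. log2(FPKM + 1), which understates changes of low genes, was tested with limma 3.58.1 (R 4.3.3, variance trend, two-sided, ECS minus control). Genes needed a mean of at least 1 FPKM. The fit was tested on simulated data. No list was tested as a set. Named genes are the 10 highest clustered and 10 highest variant genes, those with the smallest p, and up to 4 of each companion list. Mcm7, Hist2h3c2 and some cell type markers were named in addition, after their values were seen. Members and lists were chosen with earlier results of these data known. P-values measure the spread between pools. Alternatives changed the pseudocount, filter, scaling, weights, block and libraries used. Figures were drawn with matplotlib 3.10.9.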

Additional observations from a re-analysis of the deposited data

How the results depend on the processing

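The count of histone genes called was 0 under every alternative run, with the pseudocount at 0.1, no filter or a filter at 5 FPKM, 3 rescalings, no trend, library weights, a replicate block, both entries of the repeated symbol summed, and each library left out, and so was the count over all genes. The median log2 fold change of the clustered genes ranged from -0.83 (without ECS 2) to -0.0039 (library weights), and that of the variant genes from -0.69 (pseudocount 0.1) to -0.24 (filter at 5 FPKM), with -0.30 without control 1. Medians over protein-coding members or over members above 0 in all libraries, added after the data were seen, lay within these ranges. The summed FPKM of the clustered genes, ECS minus control, was -4.68, and 43.4 without ECS 1. The labels give both groups replicate numbers 1 to 3, but same-numbered libraries did not deviate together (r = -0.04, 0.10 and -0.11), and with a replicate block 0 members were called and the medians were -0.22 and -0.49. H2afv, too low to be tested under the filter at 5 FPKM, had lower values in ECS under each of the others, at an unadjusted p between 0.00378 and 0.0412, and with the pseudocount at 0.1 its log2 fold change was -3.82.

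Direction changed for 8 of the 20 tested genes, and the cause was not tested. With library weights Hist1h1c was at 0.14 and H1fx at 0.26, and with quantile normalization Hist2h3c1 was at 0.0088. With each library left out, the log2 fold change ranged from -0.84 to 0.51 for Hist1h1c, from -1.27 to 1.70 for Hist1h2bg, from -0.82 to 1.96 for Hist1h2bc, from -0.36 to 0.33 for Hist2h3c1, from -0.30 to 0.90 for Hist1h2bb, from -0.18 to 0.15 for H3f3a, from -0.47 to 0.00018 for H2afy and from -0.92 to 0.73 for H1fx. Without reversing, it ranged from -2.51 to -0.20 for Hist1h2al, from 0.36 to 3.34 for Hist1h3a, from -1.14 to -0.25 for Hist1h1e and from -1.12 to -0.11 for H2afz.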
